A study of Homo sapiens with 3 samples.

Results

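The cyclin-dependent kinase inhibitors studied here are the 7 genes CDKN1A, CDKN1B, CDKN1C, CDKN2A, CDKN2B, CDKN2C and CDKN2D, taken by gene symbol from the 58735 genes of the deposited expression table. Each symbol matched 1 gene. RNA-seq covered 3 libraries of HGC-27, a widely used line of human gastric cancer cells, 2 of them labelled shUSP16 (shUSP16-1 and shUSP16-2), with a short hairpin RNA against USP16, and 1 labelled shControl, with a control hairpin that is also named scramble. The control is given the genotype WT in the labels, all 3 libraries share a medium with fetal bovine serum and antibiotics, and the shared protocol also describes dexamethasone, isobutylmethylxanthine and insulin; whether these cells received them is unclear. It is not stated whether the numbers 1 and 2 mark different hairpins, separate cultures or repeats, nor whether the lines were clones, so p-values rest on a spread between libraries that may be technical.

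Cyclin-dependent kinases drive the cell cycle when bound to cyclins, and inhibitor proteins of 2 families hold them back. The CIP/KIP proteins p21 (CDKN1A), p27 (CDKN1B) and p57 (CDKN1C) bind assembled cyclin and kinase complexes, chiefly those of CDK2. The INK4 proteins p16 (CDKN2A), p15 (CDKN2B), p18 (CDKN2C) and p19 (CDKN2D) are built of ankyrin repeats and bind the kinases CDK4 and CDK6, which keeps RB unphosphorylated and E2F factors silent. USP16 is a deubiquitinase that removes ubiquitin from histone H2A, a mark placed by Polycomb complexes, and Polycomb complexes are known to repress the locus of CDKN2A and CDKN2B. Loss or silencing of INK4 genes is common in tumours, gastric cancer included.

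The inhibitor genes differ in the sequence before their starts, and 4 stretches are shown because they belong to the pair of genes that was higher in the libraries labelled shUSP16 (CDKN2D and CDKN2C) and to the neighbouring pair that was lower (CDKN2A and CDKN2B). RefSeq (GRCh38.p14) listed 9 starts for 6 of the 7 genes, 3 of them for CDKN2C and 2 for CDKN2A. Each stretch lies before a RefSeq start, runs 5′ to 3′ in the direction of the gene, and ends before the first GENCODE 29 exon base of that gene. They are chr19:10569060-10569229 (minus strand) for CDKN2D and chr1:50960495-50960744 (plus strand) for the first of the 3 CDKN2C starts. The others are chr9:21995325-21995574 (minus strand) for the distal CDKN2A start, and chr9:22009364-22009555 (minus strand) for CDKN2B. The windows before the later CDKN2C starts begin within exons of that gene, so none of their bases are shown. Capitals mark 2 motifs on either strand, TTTNNCGC, a widened core of an E2F site, and GGGCGG, the GC box bound by SP1.
CDKN2D: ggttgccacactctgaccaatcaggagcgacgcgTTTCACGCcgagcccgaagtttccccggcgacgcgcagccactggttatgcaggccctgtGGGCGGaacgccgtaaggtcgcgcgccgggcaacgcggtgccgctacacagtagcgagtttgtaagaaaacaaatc
CDKN2C: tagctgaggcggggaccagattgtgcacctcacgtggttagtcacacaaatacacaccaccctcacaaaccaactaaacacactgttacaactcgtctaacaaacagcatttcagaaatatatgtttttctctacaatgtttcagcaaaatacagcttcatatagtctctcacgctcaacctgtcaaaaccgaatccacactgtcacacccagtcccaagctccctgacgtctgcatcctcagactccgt
CDKN2A: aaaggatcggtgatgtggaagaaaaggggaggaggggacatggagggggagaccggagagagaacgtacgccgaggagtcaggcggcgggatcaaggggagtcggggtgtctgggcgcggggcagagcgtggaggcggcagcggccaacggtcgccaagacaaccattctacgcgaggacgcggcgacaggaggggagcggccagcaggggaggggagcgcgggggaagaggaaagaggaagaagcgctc
CDKN2B: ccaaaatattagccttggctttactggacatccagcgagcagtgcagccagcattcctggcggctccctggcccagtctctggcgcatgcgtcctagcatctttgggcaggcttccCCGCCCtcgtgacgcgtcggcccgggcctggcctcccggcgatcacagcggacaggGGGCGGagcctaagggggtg

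In the full windows of 250 bases before the 9 starts, TTTNNCGC occurred in 1 window, that of CDKN2D, where its letters were TTTCACGC; 5.92% of all 35116 windows of that length hold it. GGGCGG occurred in the CDKN2D window at 2 places, at 2 places before CDKN2B, at 4 places before CDKN1A, and in 1 place each before CDKN1B and the proximal CDKN2A start. It was also found 5 times before the middle CDKN2C start and once before the last, but not before the first CDKN2C start or the distal CDKN2A start, against 42.6% of all windows. The distal CDKN2A window lies before the first exon of the transcript for the ARF protein, and the proximal start (21974857) belongs to the transcript for p16, so a single row of the table sums both transcripts. Matches describe letters only; binding was not measured.

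The check of the targeted gene comes first. USP16 had 4.29 FPKM (fragments per kilobase scaled to library size) in shUSP16-1 and 5.98 FPKM in shUSP16-2, against 6.28 FPKM in shControl, with read ratios to shControl of 0.683 (exact binomial 95% interval 0.621 to 0.749) and 0.952 (0.875 to 1.04). With sums of reads as totals, USP16 stood at 0.639 (0.582 to 0.702) in shUSP16-1 and 0.876 (0.805 to 0.953) in shUSP16-2, so whether shUSP16-2 lay below shControl beyond counting error depends on the scaling. The log2 difference of -0.26 did not pass limma (adjusted p = 0.564), and every direction below is that of the libraries labelled shUSP16. Whole reads recovered from the FPKM values came to 29530581 in shUSP16-1, 31187845 in shUSP16-2 and 30131136 in shControl. Of 10 gastric epithelial markers none reached a mean of 1 FPKM, with sums of 0.523, 0.290 and 0.792 FPKM in shUSP16-1, shUSP16-2 and shControl, and KRT19, TFF1, TFF2 and MUC5AC were at 0 reads in all 3. Of 4 mesenchymal markers 2 reached it, VIM, encoding the filament protein vimentin, with 159 and 180 FPKM in the libraries labelled shUSP16 and 155 FPKM in shControl, and ZEB1, a repressor of epithelial genes, with 7.53 and 7.72 FPKM in the libraries labelled shUSP16 and 7.91 FPKM in shControl. The whole mesenchymal list summed to 167 and 189 FPKM in the libraries labelled shUSP16 and 164 FPKM in shControl. Fibroblast marker genes summed to 87.4 and 103 FPKM in the libraries labelled shUSP16 and 67.4 FPKM in shControl, led by COL1A1, while the leukocyte markers PTPRC, CD3E and LYZ and the endothelial markers PECAM1 and CDH5 were at 0 reads; their part in the results below was not tested. Mitochondrial genes took 11.8% and 11.3% of reads in the libraries labelled shUSP16 and 13.2% in shControl.

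All 7 inhibitors were expressed above a mean of 1 FPKM, and their differences between the groups were small. All 3 CIP/KIP genes, CDKN2A and CDKN2B were lower in both libraries labelled shUSP16 than in shControl, while CDKN2C and CDKN2D were higher in both. That is 5 members lower in both, where 32.4% of the 13852 genes tested were lower in both, and 2 higher in both, where 44.9% were higher in both. Both differences share the lone control library, so agreement between them is not independent. The median log2 difference of the members was -0.15, against 0.042 over all genes tested. With FPKM rescaled to sums of reads the counts of members were the same, while 45.4% of all genes were lower in both and 31.3% higher in both. That rescaling lowered the difference of every member, so only the 2 higher members could have changed direction. In bulk RNA, fewer cells of a kind and less RNA per cell cannot be told apart.

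None of the 7 passed the test across all genes. limma on log2(FPKM + 1), with Benjamini-Hochberg adjustment over the 13852 genes, called 0 genes at an adjusted p of 0.05 (0% of genes tested), and 1 member, CDKN2D, had an unadjusted p under 0.05. Among all genes, 2008 had one. Fits that called genes called none of the members either: limma on protein-coding genes only called 0.434% of genes, limma on genes averaging 5 FPKM or more called 0.17%, voom on recovered reads called 2.51% with the authors' totals and 4.02% with sums of reads. Adjusted p values of the members ran from 0.171 to 0.689 over all fits. No member was 1.5-fold or more from shControl in both libraries, a size reached by 2.97% of genes, and none was 2-fold, reached by 0.57%. With 1 control library the exact permutation test cannot give a p below 0.333 for any single gene.

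**Figure D1:**
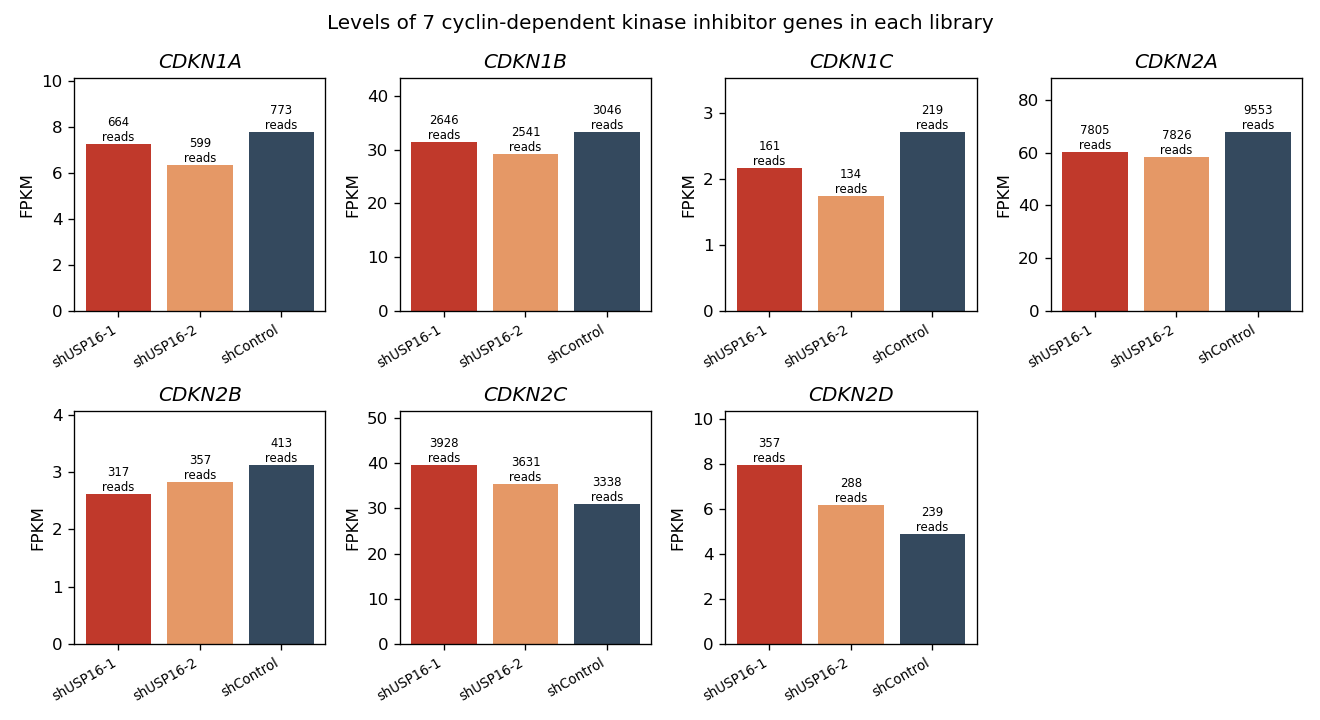
FPKM of each inhibitor gene in the 2 libraries labelled shUSP16 and in shControl, 1 bar per library, with recovered reads above each bar; each panel has its own axis from 0. The bars of CDKN2C and CDKN2D are taller in both libraries labelled shUSP16, and those of the other 5 genes are shorter, with CDKN2D at 7.95 and 6.18 FPKM against 4.88 FPKM.

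CDKN1A (ENSG00000124762, chromosome 6, 36676460 to 36687339, plus strand, GRCh38) encodes p21, the inhibitor induced by p53 after DNA damage. It had 7.29 FPKM (664 reads) in shUSP16-1 and 6.34 FPKM (599 reads) in shUSP16-2, against 7.79 FPKM (773 reads) in shControl. Both libraries labelled shUSP16 were below the control, shUSP16-2 more so. The log2 difference was -0.17 with an SE of 0.14 (limma adjusted p = 0.588). The ratio of reads to shControl was 0.936 in shUSP16-1 (0.842 to 1.04, which includes 1) and 0.814 in shUSP16-2 (0.730 to 0.907). Scaled by sums of reads it was 0.876 (0.789 to 0.973) in shUSP16-1, which excludes 1. Intervals of ratios in parentheses are exact binomial at 95%, here and below, and cover counting error only. DINOL, a noncoding gene on the opposite strand that shares 146 exon bases with CDKN1A, had 6, 0 and 0 reads in shUSP16-1, shUSP16-2 and shControl.

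CDKN1B (ENSG00000111276, chromosome 12, 12715058 to 12722371, plus strand) encodes p27, which restrains CDK2 in resting cells and is destroyed through SKP2 as cells enter the cycle. It was the most abundant CIP/KIP gene, at 31.5 FPKM in shUSP16-1 and 29.2 FPKM in shUSP16-2, against 33.3 FPKM in shControl. Both libraries labelled shUSP16 lay below the control, at log2 differences of -0.077 in shUSP16-1 and -0.18 in shUSP16-2. The gap between these 2 libraries was log2 0.11, so shUSP16-1 lay nearer to shControl than to shUSP16-2. The mean in shUSP16 was 30.3 ± 1.65 FPKM (SD, n = 2), a log2 difference of -0.13 with an SE of 0.12 (limma adjusted p = 0.641). Read ratios to shControl were 0.946 (0.898 to 0.997) in shUSP16-1 and 0.876 (0.831 to 0.924) in shUSP16-2.

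CDKN1C (ENSG00000129757, chromosome 11, 2883213 to 2885773, minus strand) encodes p57, an imprinted inhibitor expressed mainly from the maternal allele. It was the lowest of the 7 genes in every library, at 2.17 FPKM (161 reads) in shUSP16-1 and 1.74 FPKM (134 reads) in shUSP16-2, against 2.71 FPKM (219 reads) in shControl. It had the most negative difference of the family, log2 -0.33 with an SE of 0.18 (limma adjusted p = 0.442), and 10.8% of all genes tested were as low or lower. Its read ratios were 0.801 (0.649 to 0.986) in shUSP16-1 and 0.643 (0.514 to 0.800) in shUSP16-2. The ratio of shUSP16-1 to shUSP16-2 was 1.25 with an interval of 0.985 to 1.58, so at this depth the 2 libraries could not be told apart.

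CDKN2A (ENSG00000147889, chromosome 9, 21967753 to 21995301, minus strand) encodes p16 and, from another first exon and reading frame, ARF, which stabilises p53. It was the most abundant inhibitor in every library, at 60.3 FPKM (7805 reads) in shUSP16-1 and 58.3 FPKM (7826 reads) in shUSP16-2, against 67.8 FPKM (9553 reads) in shControl. The libraries labelled shUSP16 differed from each other by log2 0.048, the smallest gap among the 7 genes and below the median gap of 0.13 over all genes tested. The mean in shUSP16 was 59.3 ± 1.43 FPKM (SD, n = 2), a log2 difference of -0.19 with an SE of 0.11 (limma adjusted p = 0.463). Read ratios were 0.890 (0.864 to 0.917) in shUSP16-1 and 0.860 (0.835 to 0.887) in shUSP16-2. The values do not separate p16 from ARF.

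CDKN2B (ENSG00000147883, chromosome 9, 22002903 to 22009363, minus strand) encodes p15, an inhibitor induced by TGF-beta in epithelial cells, and lies 7602 bases from CDKN2A. It had 2.61 FPKM (317 reads) in shUSP16-1 and 2.84 FPKM (357 reads) in shUSP16-2, against 3.13 FPKM (413 reads) in shControl. The log2 difference was -0.15 with an SE of 0.15 (limma adjusted p = 0.670). Read ratios were 0.836 (0.720 to 0.970) in shUSP16-1 and 0.908 (0.786 to 1.05) in shUSP16-2, where the interval includes 1; scaled by sums of reads that of shUSP16-2 was 0.835 (0.723 to 0.965).

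The antisense RNA CDKN2B-AS1, also called ANRIL and known to bind Polycomb proteins, crosses both genes on the opposite strand. It had 1.71 and 1.75 FPKM in the libraries labelled shUSP16, against 1.94 FPKM in shControl, with a log2 difference of -0.11 (limma adjusted p = 0.802). It shares 341 exon bases with CDKN2A, 7.88% of the exon bases of that gene, and 0 with CDKN2B. The sources used here do not name the strand setting of the counting, so reads in the shared part cannot be assigned to either gene. MTAP, the metabolic enzyme gene on the other side of CDKN2A that is often co-deleted with it in tumours, had 5.01 and 5.29 FPKM in the libraries labelled shUSP16, against 4.38 FPKM in shControl (log2 0.19, limma adjusted p = 0.511). MTAP, CDKN2A and CDKN2B all gave reads in every library, and MTAP lay on the other side of the control from CDKN2A and CDKN2B.

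CDKN2C (ENSG00000123080, chromosome 1, 50960745 to 50974633, plus strand) encodes p18. It had 39.6 FPKM (3928 reads) in shUSP16-1 and 35.3 FPKM (3631 reads) in shUSP16-2, against 30.9 FPKM (3338 reads) in shControl. Both libraries labelled shUSP16 lay above the control, shUSP16-1 further. The mean in shUSP16 was 37.5 ± 3.05 FPKM (SD, n = 2), a log2 difference of 0.27 with an SE of 0.13 (limma adjusted p = 0.403), and 16.5% of all genes tested were as high or higher. Read ratios were 1.28 (1.22 to 1.34) in shUSP16-1 and 1.14 (1.09 to 1.20) in shUSP16-2. Scaled by sums of reads they were 1.20 (1.15 to 1.26) and 1.05 (1.00 to 1.10).

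CDKN2D (ENSG00000129355, chromosome 19, 10566462 to 10569059, minus strand) encodes p19, the INK4 protein whose level is known to vary through the cell cycle. Its log2 difference was 0.60 in shUSP16-1 and 0.29 in shUSP16-2, beside -0.23 and -0.44 for CDKN1C, so which of them stood further from shControl differed between the libraries. Its level was 7.95 FPKM (357 reads) in shUSP16-1 and 6.18 FPKM (288 reads) in shUSP16-2, against 4.88 FPKM (239 reads) in shControl. The log2 difference was 0.45 with an SE of 0.17 (limma unadjusted p = 0.0493, adjusted p = 0.342), and 4.70% of all genes tested were as high or higher. It also had the widest gap between the libraries labelled shUSP16, log2 0.32, against a median gap of 0.13. Read ratios were 1.63 (1.38 to 1.93) in shUSP16-1 and 1.27 (1.06 to 1.51) in shUSP16-2, and scaled by sums of reads the ratio in shUSP16-2 was 1.16 with an interval of 0.977 to 1.39 that includes 1.

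**Figure D2:**
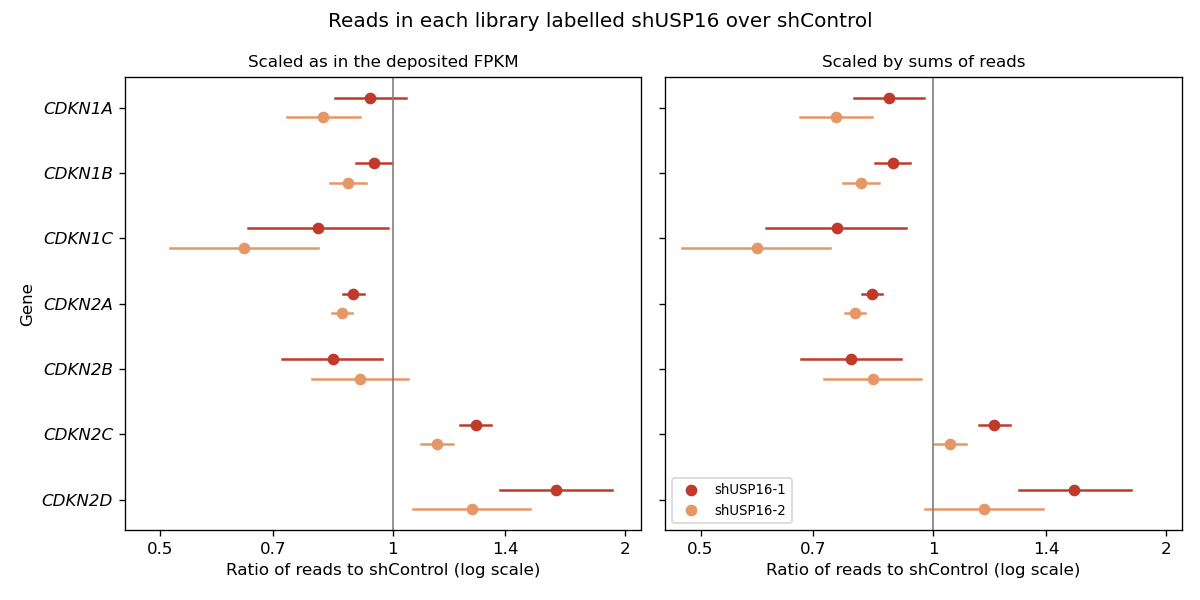
Ratio of reads to shControl (log axis) for each inhibitor gene in shUSP16-1 and shUSP16-2, with exact binomial 95% intervals for counting error; the left panel is scaled as in the deposited FPKM and the right panel by sums of reads. The ratios of CDKN2C and CDKN2D lie above 1 and those of the other 5 genes below 1 in both panels. On the left, the intervals of CDKN1A in shUSP16-1 and CDKN2B in shUSP16-2 reach above 1, to 1.04 and 1.05. On the right, the CDKN2D interval in shUSP16-2 reaches below 1, to 0.977.

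The nearest protein-coding neighbours of the 2 higher genes were also higher than in shControl in both libraries, as were 44.9% of all genes tested. This was not particular to them. MTAP, SRSF3 and SLC22A18AS, on 1 side of the lower genes CDKN2A, CDKN1A and CDKN1C, were higher in both too. AP1M2, on the other side of CDKN2D, was lower in both, as were APOLD1 beside CDKN1B and KCNQ1 beside CDKN1C, all below a mean of 1 FPKM. FAF1, whose gene for a ubiquitin-binding protein lies 482 bases from CDKN2C on the opposite strand, had 12.0 and 12.9 FPKM in the libraries labelled shUSP16 and 9.86 FPKM in shControl (log2 0.31, limma adjusted p = 0.354). KRI1, encoding a ribosome biogenesis factor and lying 425 bases from CDKN2D, had 28.8 and 28.0 FPKM in the libraries labelled shUSP16 and 24.7 FPKM in shControl (log2 0.20, limma adjusted p = 0.468). They share 0 exon bases with the inhibitor genes.

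The size of each difference depends on how libraries are scaled to each other, but ratios of genes within a library do not. The median log2 difference of all genes was 0.042 as deposited and -0.048 after rescaling to sums of reads. Per base of exon, CDKN2C had 0.657 reads for each CDKN2A read in shUSP16-1 (0.632 to 0.682) and 0.605 in shUSP16-2 (0.582 to 0.630), against 0.456 in shControl (0.438 to 0.474). The intervals of the libraries labelled shUSP16 do not reach that of the control. For CDKN2D over CDKN2A the ratio was 0.132 (0.118 to 0.147) in shUSP16-1 and 0.106 (0.0939 to 0.119) in shUSP16-2, against 0.0721 (0.0631 to 0.0819) in shControl. CDKN2B over CDKN2A was 0.0433 and 0.0487 in the libraries labelled shUSP16 and 0.0461 in shControl, with intervals that overlap. Within the CIP/KIP family, CDKN1A over CDKN1B was 0.231 and 0.217 in the libraries labelled shUSP16 and 0.234 in shControl, also overlapping. These ratios were chosen after the values were seen and carry no test between conditions.

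The order of the levels differed between libraries at 2 places. CDKN2A came first and CDKN2B and CDKN1C last in all 3 libraries. CDKN2C stood above CDKN1B in both libraries labelled shUSP16, with per-length ratios of 1.26 (1.20 to 1.32) and 1.21 (1.15 to 1.27), and below it in shControl, at 0.928 (0.884 to 0.975). CDKN2D and CDKN1A could not be told apart in either library labelled shUSP16, at ratios of 1.09 (0.957 to 1.24) and 0.976 (0.845 to 1.12), while in shControl CDKN2D was the lower of them, at 0.627 (0.540 to 0.726). CDKN2B and CDKN1C did not differ beyond counting error in shUSP16-1 or shControl, with ratios of 1.20 (0.991 to 1.46) and 1.15 (0.975 to 1.36), but did in shUSP16-2, at 1.63 (1.33 to 2.00). Levels per length rest on all annotated exons of a gene, so a gene used through a short transcript is understated.

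Summed over the 7 genes, inhibitor mRNA came to 151 FPKM in shUSP16-1 and 140 FPKM in shUSP16-2, against 150 FPKM in shControl. The control lay between the libraries labelled shUSP16. CDKN2A made up 39.8% and 41.7% of it in the libraries labelled shUSP16 and 45.0% in shControl. CDKN2C made up 26.2% and 25.2% in the libraries labelled shUSP16 and 20.5% in shControl, and CDKN2D 5.25% and 4.42% against 3.25%. The CIP/KIP genes together made up 27.0% and 26.6% in the libraries labelled shUSP16 and 29.1% in shControl.

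**Figure D3:**
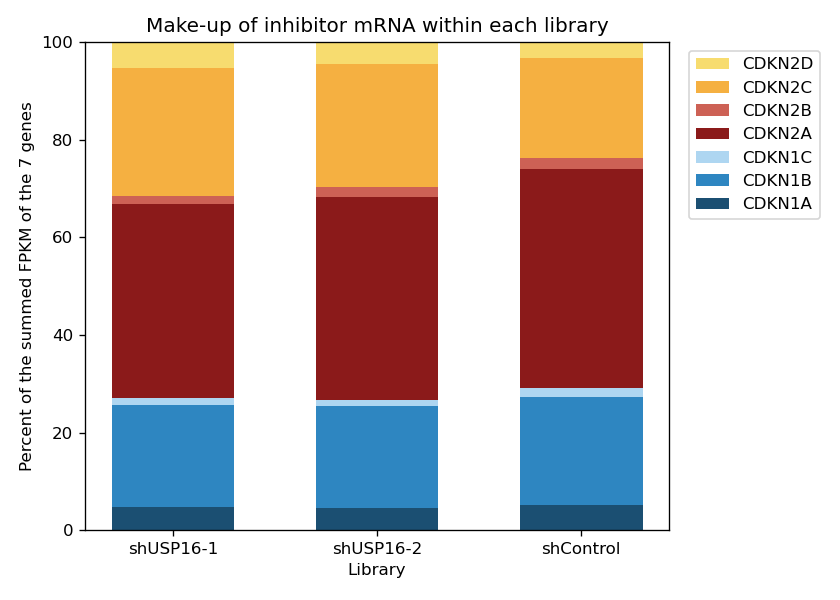
Percent of the summed FPKM of the 7 inhibitor genes taken by each gene, 1 stacked bar per library. The CDKN2C and CDKN2D segments at the top are taller in both libraries labelled shUSP16, at 26.2% and 5.25% in shUSP16-1 against 20.5% and 3.25% in shControl.

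A list of cell cycle kinases and cyclins also held CDK7, CCNH and MNAT1, of the kinase that activates CDKs, and CDC25A, a phosphatase that does so. Of its 16 tested genes 13 were higher in both and 1 lower in both, with a median log2 difference of 0.20; with sums of reads 9 were higher and 1 lower. These counts and those of the next lists stand against 44.9% of all genes higher in both and 32.4% lower in both, or 31.3% and 45.4% with sums of reads, and the lists were chosen with earlier results known. CDK4, the kinase bound by INK4 proteins, had 17.6 and 18.8 FPKM in the libraries labelled shUSP16 and 11.6 FPKM in shControl (log2 0.60, limma adjusted p = 0.279). CCND1, encoding cyclin D1, had 51.0 and 47.2 FPKM in the libraries labelled shUSP16 and 33.8 FPKM in shControl (log2 0.53, limma adjusted p = 0.280). CCNE1, encoding cyclin E1, the partner of CDK2, had 4.74 and 3.93 FPKM in the libraries labelled shUSP16 and 2.61 FPKM in shControl. No gene here passed limma; with the authors' totals voom called CDK4 and CCND1 (adjusted p = 0.0286 and 0.0324), and with sums of reads CDK4 alone (adjusted p = 0.0428).

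Within a library, the INK4 genes together had 4.40 FPKM for each FPKM of CDK4 plus CDK6 in shUSP16-1 and 3.58 in shUSP16-2, against 5.72 in shControl. The CIP/KIP genes together had 2.20 and 1.73 FPKM for each FPKM of CDK2 in the libraries labelled shUSP16, against 2.35 in shControl. Both quantities were lower in each library labelled shUSP16. The INK4 sum itself was 111 FPKM in shUSP16-1 and 103 FPKM in shUSP16-2, with shControl between them at 107 FPKM. CDK4 plus CDK6 was higher in both, at 25.1 and 28.7 FPKM against 18.7 FPKM in shControl. The CIP/KIP sum itself was lower in both. The INK4 sum includes CDKN2A, whose values do not separate p16 from ARF. These 2 quantities were chosen after the values were seen, have no test, and say nothing of protein amounts.

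Downstream of the kinases, 9 of 13 RB pocket protein and E2F genes were higher in both and 2 lower in both, with a median of 0.28 (8 and 4 with sums of reads). TFDP1, the dimer partner of E2F factors, had 32.6 and 39.6 FPKM in the libraries labelled shUSP16 and 26.4 FPKM in shControl. E2F3 had a log2 difference of 0.38, and RBL1, encoding p107, had 0.23 in shUSP16-1 and 0.48 in shUSP16-2. Of 18 E2F target genes of S phase entry, 18 were higher in both, and 15 with sums of reads. Their median was 0.38, with 0.22 in shUSP16-1 and 0.55 in shUSP16-2. MCM5 and MCM3, of the replicative helicase, and CDC45, its activator, led at 0.67, 0.55 and 0.64. limma called none of either list, and voom called these 3 of the S phase list with both kinds of total (adjusted p from 0.0168 to 0.0462).

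Of 16 genes for the turnover of inhibitor proteins 11 were higher in both and 1 lower in both under either scaling. Their median was 0.26 as deposited and 0.16 with sums of reads. SKP2, which marks p27 for destruction, had 33.2 and 38.1 FPKM in the libraries labelled shUSP16 and 26.6 FPKM in shControl (log2 0.41, limma adjusted p = 0.314). PSME3, a proteasome activator that degrades p21, was at 0.57, and PCNA, on which p21 is marked for destruction in S phase, at 0.22 in shUSP16-1 and 0.55 in shUSP16-2. limma called none, and voom called PSME3 (adjusted p = 0.0239 with the authors' totals and 0.0337 with sums of reads).

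Transcription factors that act on CIP/KIP genes, listed with the p53 regulators MDM2 and MDM4, showed no common direction, with 5 of 14 higher in both and 5 lower in both (3 and 7 with sums of reads) and a median of 0.012. MYC, which represses CDKN1A through MIZ1, was at log2 0.36, and KLF6 and FOXO4, activators of CDKN1A and CDKN1B, were at -0.50 and -0.52. limma called none; voom with sums of reads called KLF6 (adjusted p = 0.0142), which it did not with the authors' totals (adjusted p = 0.0560). Other p53 targets were likewise mixed, with 9 of 21 higher in both and 8 lower in both and a median of 0.010. That median was -0.022 in shUSP16-1 alone. BBC3, encoding the death protein PUMA, was at log2 -0.38 in shUSP16-1 and -0.92 in shUSP16-2, and TP53INP1, a stress protein gene, at -0.24 and -0.97, so both rest mainly on shUSP16-2. AEN, a nuclease gene, had a log2 difference of 0.50. With sums of reads 14 of the 21 were lower in both and 4 higher in both, so this split depends on the scaling. limma called none, voom with the authors' totals 0 and voom with sums of reads 3, namely BBC3, TP53INP1 and GADD45A, the last named after its values were seen.

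Of 15 tested Polycomb genes and other regulators of the INK4 locus 9 were higher in both and 2 lower in both, with a median of 0.073, but 5 and 5 with sums of reads. ID1, a repressor of CDKN2A, had the largest difference of the list, with 60.1 and 55.8 FPKM in the libraries labelled shUSP16 and 34.9 FPKM in shControl (log2 0.72, limma adjusted p = 0.272). It was called by limma on protein-coding genes (adjusted p = 0.0487) and by voom (adjusted p = 0.0133 with the authors' totals). CBX2, a Polycomb subunit, was at 0.25 and CBX8, another subunit known to bind the CDKN2A locus, at -0.40; voom called CBX8 only with sums of reads (adjusted p = 0.0364). limma on all genes called none.

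**Figure D4:**
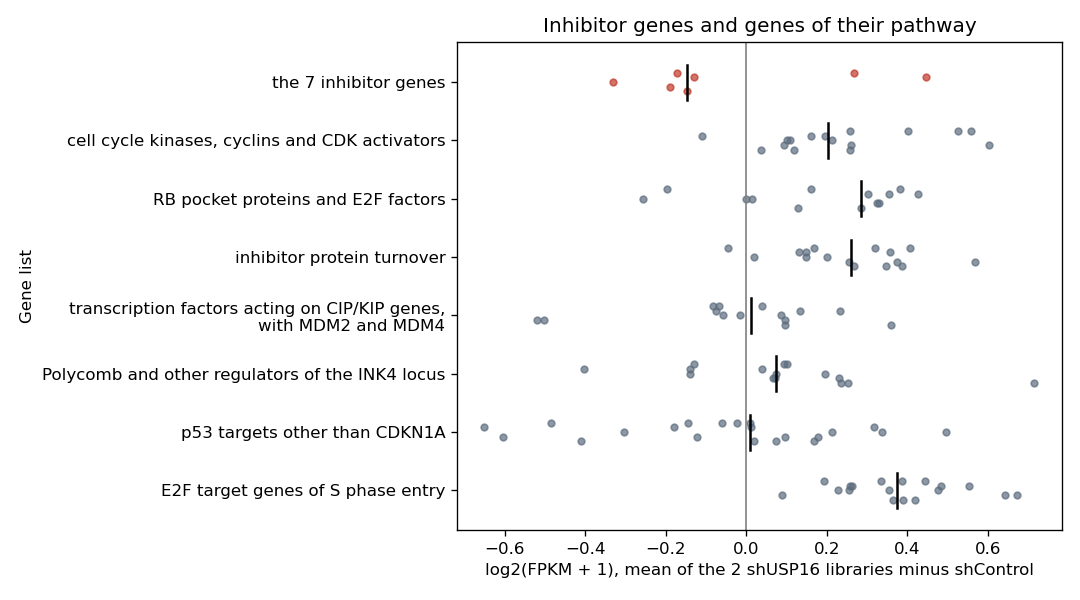
Differences of log2(FPKM + 1), mean of the 2 libraries labelled shUSP16 minus shControl, for the tested genes of each list, 1 point per gene, with the list median as a black bar; vertical offsets only separate points. The inhibitor genes have a median of -0.15, and the S phase list, at 0.38, lies wholly to the right of 0.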

How the data were processed

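Per the labels, RNA was sequenced from 2 libraries labelled shUSP16 and 1 labelled shControl. The deposited table, per the file headers, gives FPKM values per library and gene length; no source used here names the aligner, counter or strand setting. All 58735 gene IDs and positions equal those of human GENCODE release 29 on GRCh38, although GRCm38 and mm10 are listed per the submitters' processing notes. FPKM times gene length was a whole multiple of 1 step for 100% of values (tolerance 0.01 reads), which gave the reads; the authors' totals were 1.01, 0.994 and 1.08 times their sums in shUSP16-1, shUSP16-2 and shControl.

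limma 3.58.1 in R 4.3.3 was fitted with a mean trend to log2(FPKM + 1) of genes averaging 1 FPKM or more, so fold changes understate low genes. Only the libraries labelled shUSP16 gave the spread, with 1 residual degree of freedom, and the control was assumed to vary like them. Each gene's variance was drawn towards the trend across genes, with a prior of 4.05 degrees of freedom. An SE or p-value therefore does not rest on the spread of that gene alone. The limma and voom fits were tested on simulated data with planted changes of 2-fold or more, which are larger than the differences of the members. Members and lists were chosen with earlier results of these data known. Named were the 7 inhibitors, USP16, up to 3 genes per list with the largest difference, and neighbouring genes. Python 3.11.15, scipy 1.17.1 and matplotlib 3.10.9 were used.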

Additional observations from a re-analysis of the deposited data

How the results depend on the processing

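All 82 member values under the 12 alternative settings kept their sign, and no fit with a test called any. Most of these settings could not change a sign. Another filter, gene set or trend leaves a member's difference as it was. With 1 library labelled shUSP16 left out, the value is the difference in the other library, given above. A sign could change only where the libraries were scaled to each other in another way. The other scalings lowered the difference of every member, so only CDKN2C and CDKN2D could have changed sign. No paired analysis was possible because the control group has 1 library. Over these settings CDKN1A ran from -0.31 to -0.085, CDKN1B from -0.24 to -0.077, CDKN1C from -0.59 to -0.23, CDKN2A from -0.30 to -0.17, CDKN2B from -0.30 to -0.10, CDKN2C from 0.16 to 0.35 and CDKN2D from 0.29 to 0.60. With a mean of at least 5 FPKM, CDKN1C and CDKN2B were not tested and 3 members were lower in both. The count of genes called across all genes was 0, but 13 with a mean of at least 5 FPKM, 48 among protein-coding genes only, and 348 and 557 with voom on the authors' totals and on sums of reads; the cause was not tested. It was 0 with a pseudocount of 0.1, no filter, either other scaling, no trend, a robust trend or an adjusted p of 0.1. Genes past 2-fold in both libraries numbered 79, and 241 with a pseudocount of 0.1, 162 with no filter, 20 with a mean of at least 5 FPKM, 13 among protein-coding genes and 412 at 1.5-fold. With 1 library labelled shUSP16 left out, 211 to 235 genes were past 2-fold in the other, since fewer libraries had to pass; such values have no test. Depth limits CDKN1C, CDKN2D and CDKN2B most, with 134 to 413 reads per library.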

Other observations

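CDKN3, which despite its symbol encodes a phosphatase that acts on cyclin-dependent kinases and is no member of either inhibitor family, had 34.2 and 35.1 FPKM in the libraries labelled shUSP16 and 35.4 FPKM in shControl, a log2 difference of -0.031 (limma adjusted p = 0.914).

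With 3 libraries a pattern holds only 2 differences, so many genes resemble each inhibitor. Within 0.05 on both log2 differences from shControl lay 273 other tested genes for CDKN1B, 240 for CDKN2A, 237 for CDKN2B, 177 for CDKN1A, 147 for CDKN2C, 70 for CDKN1C and 14 for CDKN2D. The nearest protein-coding genes were ZFP90 and IFT172 for CDKN1B, ZNF70 and PLK2 for CDKN2A, USP40 and SS18L1 for CDKN2B, ROBO3 and TMEM107 for CDKN1A, PHF13 and KIF1B for CDKN2C, and CHCHD10 and TEF for CDKN2D, at distances from 0.0022 to 0.039 on the log2 scale. For CDKN1C they were HOXB8 and C8orf58.

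Beside the inhibitors, GPR19 and APOLD1 near CDKN1B, KCNQ1 near CDKN1C and AP1M2 near CDKN2D lay below a mean of 1 FPKM. SLC22A18AS, 2007 bases from CDKN1C, had 2.16 and 1.83 FPKM in the libraries labelled shUSP16 and 1.59 FPKM in shControl (log2 0.21, limma adjusted p = 0.629). SRSF3, a splicing factor gene, lies 70860 bases before CDKN1A. It had 70.4 and 83.3 FPKM in the libraries labelled shUSP16 and 63.1 FPKM in shControl (log2 0.27, limma adjusted p = 0.424). DMRTA1, 437478 bases beyond CDKN2B, was at 2.91 and 2.46 FPKM in the libraries labelled shUSP16 and 2.59 FPKM in shControl.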
